A study of Mus musculus with 6 samples.

Results

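The 10 circadian clock genes Arntl, Npas2, Clock, Per1, Per2, Per3, Nr1d1, Nr1d2, Dbp and Ciart were read in RNA immunoprecipitation sequencing (RIP-seq) libraries of mouse left ventricle. They were chosen by name as core clock and output genes, and each was found once among the 46072 genes of the tables. The question was whether genes that mark the time of day differed between the groups, since the groups were collected after different infusion times.

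RIP-seq recovers the RNA that comes down with an antibody, here anti-EZH2 or normal IgG. EZH2 is the enzyme of the Polycomb repressive complex that methylates histone H3. The mice were males aged 10 weeks, with 2 mice in each of 3 groups: Sham, AngII 4 h and AngII 24 h. AngII (Angiotensin II, a hormone that raises blood pressure) was delivered at a labelled rate of 1 mg/kg/min from an osmotic minipump under the skin, for 4 h or 24 h, and the Sham mice received saline by the protocol while their label reads untreated. The labelled strain was C57BL/6 for 4 libraries, C57BL/7 for the AngII 4 h anti-EZH2 library and C57BL/8 for the AngII 24 h anti-EZH2 library. Within each AngII group the labels thus give different strains to libraries of the same mice. The reason for this conflict is not given in the sources used here.

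Each group gave 1 IgG library and 1 anti-EZH2 library, and each library was a mixture of 2 RIP products. There were therefore no replicates, and no test across mice was possible. Both libraries of a group came from the same mice, so they were not independent of each other. The hour of collection is not given in the sources used here, and infusion time and the hour of collection cannot be told apart. In tissue of mixed cells, fewer cells of a type and less RNA per cell cannot be told apart either.

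The circadian clock is a feedback loop of transcription that runs in nearly every cell, the cardiomyocyte included. ARNTL (also called BMAL1) pairs with CLOCK or NPAS2 and switches on the Per genes, Ciart, Nr1d1, Nr1d2 and Dbp through E-boxes. The PER proteins and CIART hold that pair back, REV-ERB proteins (from Nr1d1 and Nr1d2) repress Arntl, and DBP drives output genes. In mouse organs the Arntl and Dbp transcripts therefore peak at opposite times of the day, with large swings in Dbp and Nr1d1.

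The deposited values were FPKM, which divides the fragments of a gene by its length and by the size of the library, with an interval for each value in the separate table of each library. The libraries held an estimated 4220000 to 8130000 fragments and 15003 to 17685 genes above 0. The width of an interval was turned into equivalent fragments, the number of fragments whose counting error would give that width. Intervals do not cover the difference between mice, and what they hold beyond counting error was not tested. Of the markers listed for ventricular cardiomyocytes, 7 of 7 were above 0 in each library, with a summed level of 4063 to 7149 FPKM. Whether they tell ventricle from atrium was not tested. Summed atrial markers (Myl7, Myl4, Sln and Nppa) were 44.0 and 29.6 FPKM in the Sham IgG and anti-EZH2 libraries and 5.36 to 11.7 FPKM in the 4 AngII libraries, with Sln listed at 0 in all 6. Summed skeletal muscle markers ranged from 0.0102 to 34.7 FPKM. The highest library was AngII 24 h IgG, where 3 of the 4 markers were listed at 0. Other summed markers ranged from 0 to 0.521 FPKM for adipocytes, 10.9 to 18.7 for leukocytes, 8.65 to 21.9 for endothelium, 22.4 to 43.9 for fibroblasts and 587 to 1454 for red cells. The part of these markers in the values of the clock genes was not tested.

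The clock genes fell into ones with narrow intervals and ones with wide intervals. Nr1d1, Nr1d2 and Dbp had at least 20 equivalent fragments in each of the 6 libraries, and no other clock gene did. This split was made after their values were seen. It rests on the width of the intervals and not on counts of fragments. Per1 had a mean of 5.33 FPKM and Nr1d2 one of 4.26 FPKM, with longest transcripts of 4671 and 4663 nt. Yet Per1 had 4.70 to 15.8 equivalent fragments and Nr1d2 had 27.7 to 68.3. The source of this difference was not tested. Of the 10 genes, 7 passed the filter of a mean of at least 1 FPKM over the 6 libraries, and Arntl, Npas2 and Per3 did not.

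**Figure D1:**
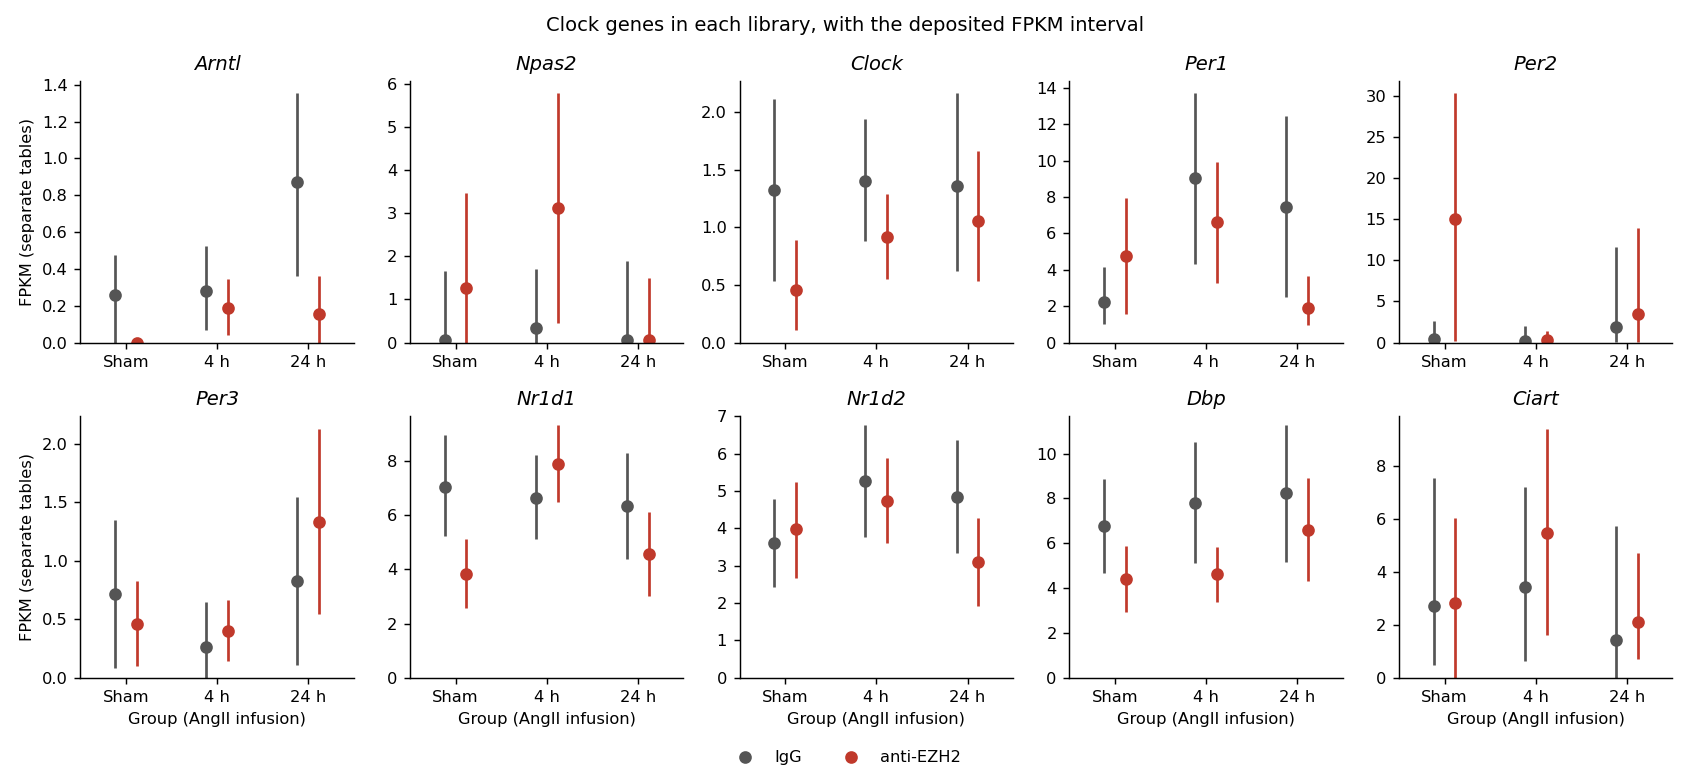
FPKM of the 10 clock genes (y axis, linear, a scale of its own in each panel) by group, Sham and AngII for 4 h or 24 h (x axis), with IgG in grey and anti-EZH2 in red. Points are single libraries and bars are the deposited FPKM intervals. The bars are narrow relative to the values for Nr1d1, Nr1d2 and Dbp and reach far past the point for Per2, whose Sham anti-EZH2 value of 15.0 has an interval from 0.187 to 30.3.

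Nr1d1 and Nr1d2 encode REV-ERB alpha and REV-ERB beta, the repressors of Arntl. Nr1d1 (chr11:98767932-98775333, minus strand, mm10) was at 7.06, 6.65 and 6.34 FPKM in the Sham, AngII 4 h and AngII 24 h IgG libraries. In anti-EZH2 the Nr1d1 values were 3.83, 7.91 and 4.56 FPKM. The IgG values were close to each other, and the AngII 4 h library stood highest in anti-EZH2. Its interval there (6.48 to 9.33 FPKM) lay above that of Sham (2.58 to 5.11 FPKM) and that of AngII 24 h (3.02 to 6.14 FPKM).

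Changes between groups were taken as differences of log2(FPKM + 0.1), less the median difference of the 8637 genes that passed the filter. This median was 0.18 (IgG) and 0.34 (anti-EZH2) for AngII 4 h against Sham, 0.20 and -0.08 for AngII 24 h against Sham, and 0.01 and -0.48 for AngII 24 h against AngII 4 h. On this centred log2 scale, Nr1d1 changed by -0.26 in IgG (interval of 2 counting errors, -0.79 to 0.26) and by 0.68 in anti-EZH2 (0.14 to 1.23) at AngII 4 h against Sham. The anti-EZH2 value is a 1.61-fold higher level (1.10 to 2.35). Before centring, the anti-EZH2 difference was 1.03, just past 2-fold. The antibodies thus gave Nr1d1 changes of opposite sign, and a test of that difference was not run. The Nr1d1 changes at AngII 24 h against Sham were -0.35 and 0.33, and both intervals included 0. At AngII 24 h against AngII 4 h they were -0.08 and -0.30 (-0.86 to 0.26) in IgG and anti-EZH2, and the anti-EZH2 difference was -0.78 before centring.

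Nr1d2 (chr14:18204054-18239127, minus strand) was at 3.59, 5.28 and 4.85 FPKM in Sham, AngII 4 h and AngII 24 h with IgG. With anti-EZH2 it was at 3.98, 4.74 and 3.10 FPKM. The AngII 4 h library was the highest of the 3 with either antibody, and all of the intervals overlapped. Centred changes of Nr1d2 were 0.36 and -0.09 at AngII 4 h against Sham, 0.22 and -0.27 at AngII 24 h against Sham, and -0.13 and -0.12 at AngII 24 h against AngII 4 h, in IgG and anti-EZH2. The anti-EZH2 value at AngII 4 h was 0.25 before centring, so its sign depended on the scaling.

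Dbp encodes a transcription factor of the PAR bZIP family that binds D-boxes and carries the rhythm to output genes. Dbp (chr7:45705088-45710155, plus strand) was at 6.76, 7.81 and 8.24 FPKM in the Sham, AngII 4 h and AngII 24 h IgG libraries. Its anti-EZH2 values were 4.39, 4.61 and 6.60 FPKM. AngII 24 h was the highest of the 3 with both antibodies, and the deposited intervals of all 3 groups overlapped. The centred Dbp changes against Sham were 0.03 (-0.64 to 0.70) and -0.27 (-0.89 to 0.34) at AngII 4 h, in IgG and anti-EZH2. They were 0.09 (-0.61 to 0.78) and 0.66 (-0.03 to 1.36) at AngII 24 h. For AngII 24 h against AngII 4 h the Dbp change was 0.06 (-0.66 to 0.79) in IgG and 0.99 (0.36 to 1.62) in anti-EZH2, the latter a 1.98-fold higher level that was 0.51 before centring.

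Over all 6 libraries of both antibodies, in the separate tables and without centring, the highest Nr1d1 value was 2.06 times the lowest. The same range was 1.70-fold for Nr1d2 and 1.88-fold for Dbp. Among the 1204 tested genes with at least 20 equivalent fragments in each library, the median range was 2.03-fold, and the middle 50% of genes lay between 1.77 and 2.37. Of these genes, 53.7% had a narrower range than Nr1d1, 18.5% a narrower one than Nr1d2 and 35.6% a narrower one than Dbp. Nr1d1 and Dbp lay within the middle 50%, and Nr1d2 just below it.

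**Figure D2:**
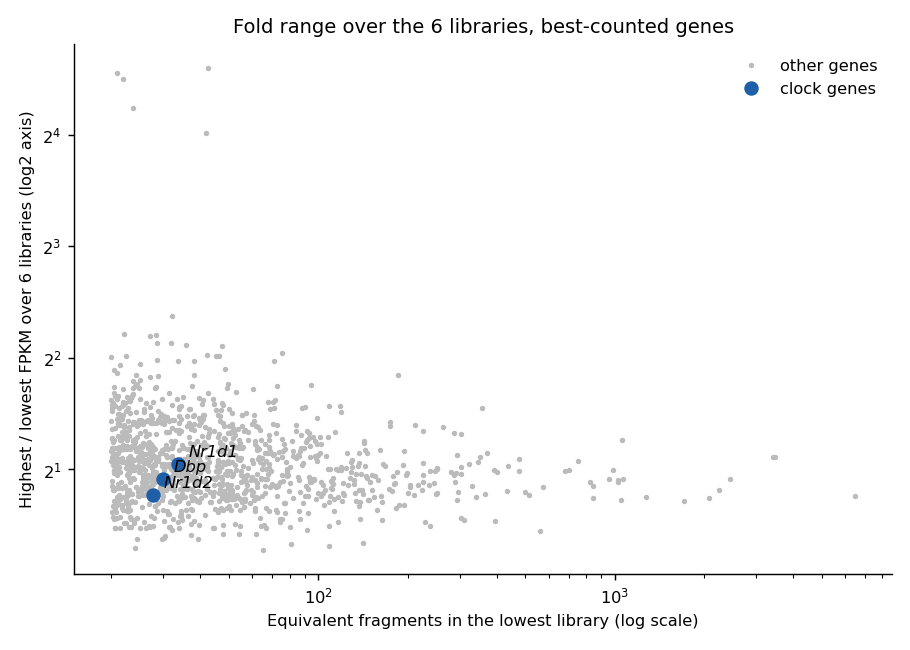
Highest over lowest FPKM across the 6 libraries, from the separate tables without centring (y axis, log2), against the equivalent fragments in the lowest library (x axis, log). The 1204 genes with at least 20 in each library are shown. Nr1d1 (2.06-fold), Dbp (1.88-fold) and Nr1d2 (1.70-fold), in blue, lie within the cloud of other genes, in grey.

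The level of Dbp at AngII 24 h depended on which deposited table was read. The authors also deposited 1 table of the whole series, with FPKM on another scale. There Dbp was at 2.00, 1.61 and 6.08 FPKM in Sham, AngII 4 h and AngII 24 h with IgG. With anti-EZH2 it was at 1.70, 1.40 and 6.80 FPKM. Both AngII 24 h libraries were far above the other 4, which the separate tables did not show. The place of the Dbp range among those of other genes was not calculated for the series table.

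The median gene was higher at AngII 24 h too in that table, by 0.62 and 0.64 against Sham and by 0.76 and 0.64 against AngII 4 h on the log2 scale, in IgG and anti-EZH2. After this was taken off, Dbp was higher at AngII 24 h by 0.94 and 1.30 against Sham and by 1.10 and 1.56 against AngII 4 h. The second pair is past 2-fold with both antibodies, as were 12.3% of the 5036 genes tested in that table. Nr1d1 in the series table was at 2.93, 2.19 and 3.92 FPKM in IgG and at 1.89, 3.13 and 4.57 FPKM in anti-EZH2, and its centred changes at AngII 24 h against Sham were -0.20 and 0.59. Before centring these Nr1d1 changes were 0.41 and 1.23. What made the tables differ was not tested.

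**Figure D3:**
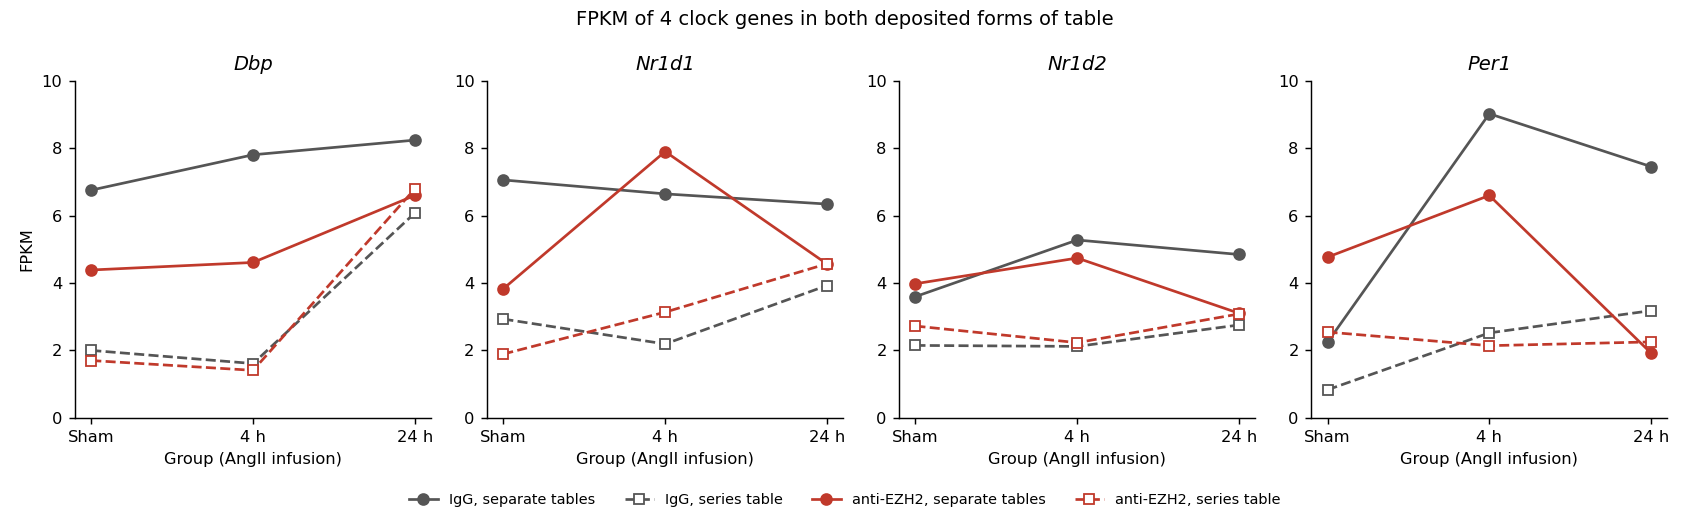
FPKM (y axis, linear) of Dbp, Nr1d1, Nr1d2 and Per1 by group (x axis) in the separate tables (filled circles, full lines) and in the series table (open squares, dashed lines), with IgG in grey and anti-EZH2 in red. Each point is 1 library. Dbp stands at 6.08 and 6.80 FPKM at AngII 24 h in the series table, against 1.40 to 2.00 in its other 4 libraries.

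Dbp and Nr1d1 could also be compared within a library, where scaling between libraries plays no part. The ratio of Dbp to Nr1d1 FPKM was 0.957, 1.17 and 1.30 in the Sham, AngII 4 h and AngII 24 h IgG libraries. In anti-EZH2 it was 1.15, 0.583 and 1.45. AngII 24 h had the highest ratio with both antibodies, and the place of AngII 4 h differed between them. In the series table the ratio was 0.682, 0.734 and 1.55 with IgG and 0.898, 0.448 and 1.49 with anti-EZH2.

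Exons of Dbp and Nr1d1 are shared with genes on the other strand. Sphk2 overlaps 539 of the 2993 exonic nt of Dbp (18.0%), and Thra overlaps 263 of the 3077 exonic nt of Nr1d1 (8.55%). The libraries were stranded, but whether the counting used the strand is not given in the sources used here. Sphk2 was at 1.31 to 2.21 FPKM and Thra at 2.64 to 13.1 FPKM. How many fragments of the overlaps were assigned to the clock genes was not tested.

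The activating arm was low. Arntl (chr7:113207465-113314122, plus strand) was at 0.256, 0.282 and 0.873 FPKM in Sham, AngII 4 h and AngII 24 h with IgG. With anti-EZH2 it was listed at 0 in Sham and was at 0.185 and 0.155 FPKM in AngII 4 h and AngII 24 h. The AngII 24 h IgG library held the highest value, with an interval (0.361 to 1.35 FPKM) that overlapped those of the other IgG libraries. The AngII anti-EZH2 values were close to each other. All rested on at most 13.2 equivalent fragments.

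The log2 ratio of Arntl to Dbp within a library, with 0.1 FPKM added to both values, set the opposite phases of the loop against each other. It was -4.27, -4.37 and -3.10 in the Sham, AngII 4 h and AngII 24 h IgG libraries. It was -4.04 and -4.72 in AngII 4 h and AngII 24 h with anti-EZH2, and none is given for Sham, where Arntl was listed at 0 and a ratio would rest on the added 0.1 FPKM. Dbp was the more abundant per length in each library, by 9.45-fold to 42.7-fold with nothing added, in the 5 libraries with Arntl above 0. AngII 24 h had the highest ratio in IgG and the lower of the pair in anti-EZH2. In the series table the IgG ratios were -3.18, -3.02 and -3.34, which turned the order, with AngII 24 h lowest.

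Clock, the usual partner of ARNTL, was at 1.32, 1.40 and 1.36 FPKM in the Sham, AngII 4 h and AngII 24 h IgG libraries (chr5:76209868-76304792, minus strand). Its anti-EZH2 values were 0.453, 0.920 and 1.05 FPKM, in the same order of groups. The IgG libraries were nearly level, and the low Sham value in anti-EZH2 rested on 4.30 equivalent fragments. The centred change at AngII 24 h against Sham was -0.16 in IgG and 1.14 in anti-EZH2, and the latter was -0.17 in the series table.

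Npas2, the alternative partner, is at chr1:39193731-39363236 on the plus strand. It was at 0.0573, 0.330 and 0.0649 FPKM in Sham, AngII 4 h and AngII 24 h with IgG. With anti-EZH2 it was at 1.27, 3.11 and 0.0518 FPKM. AngII 4 h was the highest of the 3 with both antibodies, but the intervals of the groups overlapped within each antibody and no value rested on more than 5.44 equivalent fragments.

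Of the repressors, Per1 is a clock gene that also answers directly to hormones and other acute signals. Per1 (chr11:69095217-69109960, plus strand) was at 2.24, 9.03 and 7.46 FPKM in the Sham, AngII 4 h and AngII 24 h IgG libraries. In anti-EZH2 it was at 4.77, 6.60 and 1.92 FPKM. AngII 4 h was the highest of the 3 with both antibodies, whereas AngII 24 h was above Sham in IgG and below it in anti-EZH2. The interval of AngII 4 h in IgG (4.32 to 13.7 FPKM) lay just above that of Sham (1.04 to 4.13 FPKM), and the other pairs with Sham overlapped.

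The centred changes of Per1 were 1.79 in IgG and 0.12 in anti-EZH2 at AngII 4 h against Sham, and 1.49 and -1.19 at AngII 24 h against Sham. In the series table the first pair was 1.60 and -0.25. Per1 and Per2 were past 2-fold in opposite directions with the antibodies at AngII 24 h against Sham, as were 6.45% of the 8637 tested genes. The Per1 values rested on 4.70 to 15.8 equivalent fragments.

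Per1 responds to glucocorticoids as well as to the clock, so other genes that respond to glucocorticoids were read beside it. Pdk4, which restrains the use of glucose and responds to fasting too, was at 7.00, 53.0 and 19.6 FPKM in Sham, AngII 4 h and AngII 24 h with IgG and at 8.09, 43.3 and 9.87 FPKM with anti-EZH2. The AngII 4 h value was the highest with both antibodies, with centred changes against Sham of 2.73 and 2.06. Of the 5 such genes, all of which passed the filter, only Pdk4 was past 2-fold with both antibodies at AngII 4 h against Sham, none was at AngII 24 h against Sham, and Fkbp5 and Pdk4 were lower past 2-fold at AngII 24 h against AngII 4 h. The shares of all 8637 tested genes past 2-fold with both antibodies were 7.26%, 7.57% and 5.45% in these comparisons. In the series table the last pair was Pdk4 and Zbtb16. Short of 2-fold with both antibodies, Zbtb16 was higher at AngII 4 h against Sham by 1.67 (1.20 to 2.14) in IgG and 0.48 (0.15 to 0.82) in anti-EZH2. Fkbp5 was higher by 0.73 and 1.61. Tsc22d3 changed by 0.34 and 0.01, with intervals that included 0, and Sgk1 by -0.51 and 0.32. Of 6 immediate early genes, only Junb passed the filter, and it was not past 2-fold with both antibodies in any comparison. The part of such signals in the Per1 values was not tested.

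Per2 had the widest fold range over the 6 libraries (63.5-fold, beside 60.0-fold for Npas2 and none for Arntl, which reached 0), on at most 3.87 equivalent fragments. Per2 (chr1:91415982-91459324, minus strand) was at 0.492, 0.237 and 1.84 FPKM in the Sham, AngII 4 h and AngII 24 h IgG libraries. Its anti-EZH2 values were 15.0, 0.289 and 3.50 FPKM. AngII 4 h was lowest with both antibodies, and Sham was highest in anti-EZH2 only. The value of 15.0 FPKM had an interval from 0.187 to 30.3 FPKM and stood on 3.87 equivalent fragments, and the other 5 values had intervals as wide as fewer than 1 fragment would give.

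The annotation holds 2 Per2 transcripts, of 231 and 5833 nt. A fragment on the short one is worth far more FPKM than one on the long one, and how the fragments were divided between them was not tested. The centred Per2 changes were -0.99 and -5.62 at AngII 4 h against Sham, 1.52 and -1.99 at AngII 24 h against Sham, and 2.52 and 3.69 at AngII 24 h against AngII 4 h, in IgG and anti-EZH2. All of the Per2 intervals overlapped.

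Per3 (chr4:151003652-151044665, minus strand), the least needed of the Per genes for the rhythm, was at 0.715, 0.260 and 0.826 FPKM in Sham, AngII 4 h and AngII 24 h with IgG. Its anti-EZH2 values were 0.457, 0.401 and 1.33 FPKM. As with Per2 the AngII 4 h library was lowest with both antibodies, and the AngII 24 h library was highest. Its centred changes at AngII 24 h against AngII 4 h were 1.35 and 2.00, with overlapping intervals on 1.83 to 11.1 equivalent fragments.

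Ciart (chr3:95878503-95882251, minus strand), which encodes the repressor also called CHRONO, was at 2.69, 3.43 and 1.42 FPKM in the Sham, AngII 4 h and AngII 24 h IgG libraries. In anti-EZH2 it was at 2.81, 5.47 and 2.10 FPKM. AngII 4 h was highest and AngII 24 h lowest with both antibodies, and the intervals overlapped. The centred changes of Ciart at AngII 24 h against AngII 4 h were -1.23 and -0.86, on 0.435 to 7.77 equivalent fragments. In the series table they were -1.18 and 0.00.

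The letters through which the loop is wired were found in the promoters of a few of these genes. RefSeq promoters (GRCm38.p6, 250 bases before to 50 after a start site) were at hand for 9 of the 10 genes, 13 in all, and 5 of the 13, each of another gene, held an exact match on either strand to an E-box (CACGTG), an E'-box (CACGTT), a D-box (TTANGTAA) or a ROR element (TAGGTCA). The shares of all 32851 promoters of that length with these letters were 7.15%, 4.68%, 2.32% and 2.61%, and 15.8% held at least 1 of the 4. Ciart held 3 E-boxes and Per1 held 1, the sites of the ARNTL pair. Per3 held 2 D-boxes, the sites of DBP, and Nr1d1 held an E'-box, which reads AACGTG on its strand. Arntl held a ROR element, the kind of site that REV-ERB proteins bind, 31 bases after its start site. The part upstream of the start site, without bases in annotated exons, is shown 5′ to 3′ on the strand of the gene for the 4 genes with a match there, with the match in capitals. The windows are chr11:69098699-69098947 (plus strand) for Per1, chr4:151044666-151044915 (minus) for Per3, chr11:98775378-98775627 (minus) for Nr1d1 and chr3:95882252-95882478 (minus) for Ciart. The last base shown is at position -2 from the start site for Per1 and at -24 for Ciart. The Per1 window lies inside the gene, before one of its later start sites.
Per1: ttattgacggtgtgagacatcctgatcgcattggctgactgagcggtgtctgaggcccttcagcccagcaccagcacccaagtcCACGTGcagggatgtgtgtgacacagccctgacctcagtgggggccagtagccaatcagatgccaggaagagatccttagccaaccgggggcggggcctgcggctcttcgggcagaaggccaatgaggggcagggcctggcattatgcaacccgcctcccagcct
Per3: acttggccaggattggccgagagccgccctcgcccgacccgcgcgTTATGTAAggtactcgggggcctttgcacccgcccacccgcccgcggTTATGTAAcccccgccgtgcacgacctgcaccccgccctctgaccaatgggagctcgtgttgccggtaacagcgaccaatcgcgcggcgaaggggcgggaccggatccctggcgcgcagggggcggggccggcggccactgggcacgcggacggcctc
Nr1d1: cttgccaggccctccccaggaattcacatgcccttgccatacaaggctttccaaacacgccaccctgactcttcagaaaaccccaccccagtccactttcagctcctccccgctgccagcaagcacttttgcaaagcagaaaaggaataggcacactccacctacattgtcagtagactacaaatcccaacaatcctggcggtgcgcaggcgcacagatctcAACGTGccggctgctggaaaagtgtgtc
Ciart: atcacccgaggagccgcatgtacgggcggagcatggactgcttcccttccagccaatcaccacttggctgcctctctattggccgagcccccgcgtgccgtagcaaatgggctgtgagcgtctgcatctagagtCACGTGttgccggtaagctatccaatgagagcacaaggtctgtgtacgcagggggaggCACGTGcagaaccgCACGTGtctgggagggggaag
A match of letters is a description, and no binding at these windows was measured here.

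Counted together, few clock genes passed a 2-fold change with both antibodies in the same direction. At AngII 4 h against Sham, 0 of the 7 genes that passed the filter did, where 7.26% of all 8637 tested genes did. The count was again 0 of 7 at AngII 24 h against Sham, against 7.57% of all tested genes. It was 1 of 7 at AngII 24 h against AngII 4 h, against 5.45% of all tested genes, and this was Per2, which was higher, as were 2.74% of all tested genes. With so few genes these counts could not be set apart from the background. With the further demand of at least 20 equivalent fragments in each library, none of Nr1d1, Nr1d2 and Dbp was past 2-fold with both antibodies in any of the 3 comparisons, against 0.831%, 0.831% and 0.415% of the 1204 genes.

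With a single antibody the counts were higher for all genes. At AngII 4 h against Sham 1 of 7 clock genes was past 2-fold in IgG (Per1) and 1 of 7 in anti-EZH2 (Per2), against 28.8% and 28.3% of all tested genes. For AngII 24 h against Sham it was 3 of 7 in IgG (Per1 and Per2 higher, Ciart lower) and 3 of 7 in anti-EZH2 (Clock higher, Per1 and Per2 lower), against 29.7% and 35.5%. Between AngII 24 h and AngII 4 h it was 2 of 7 in IgG (Per2 higher, Ciart lower) and 2 of 7 in anti-EZH2 (Per2 higher, Per1 lower), against 25.5% and 30.4%. The median centred change of the 7 genes was 0.03 and 0.12, then 0.09 and -0.27, then -0.08 and -0.12 in these comparisons, against 0 for all tested genes by construction. These comparisons share libraries, and so they are not independent of each other.

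**Figure D4:**
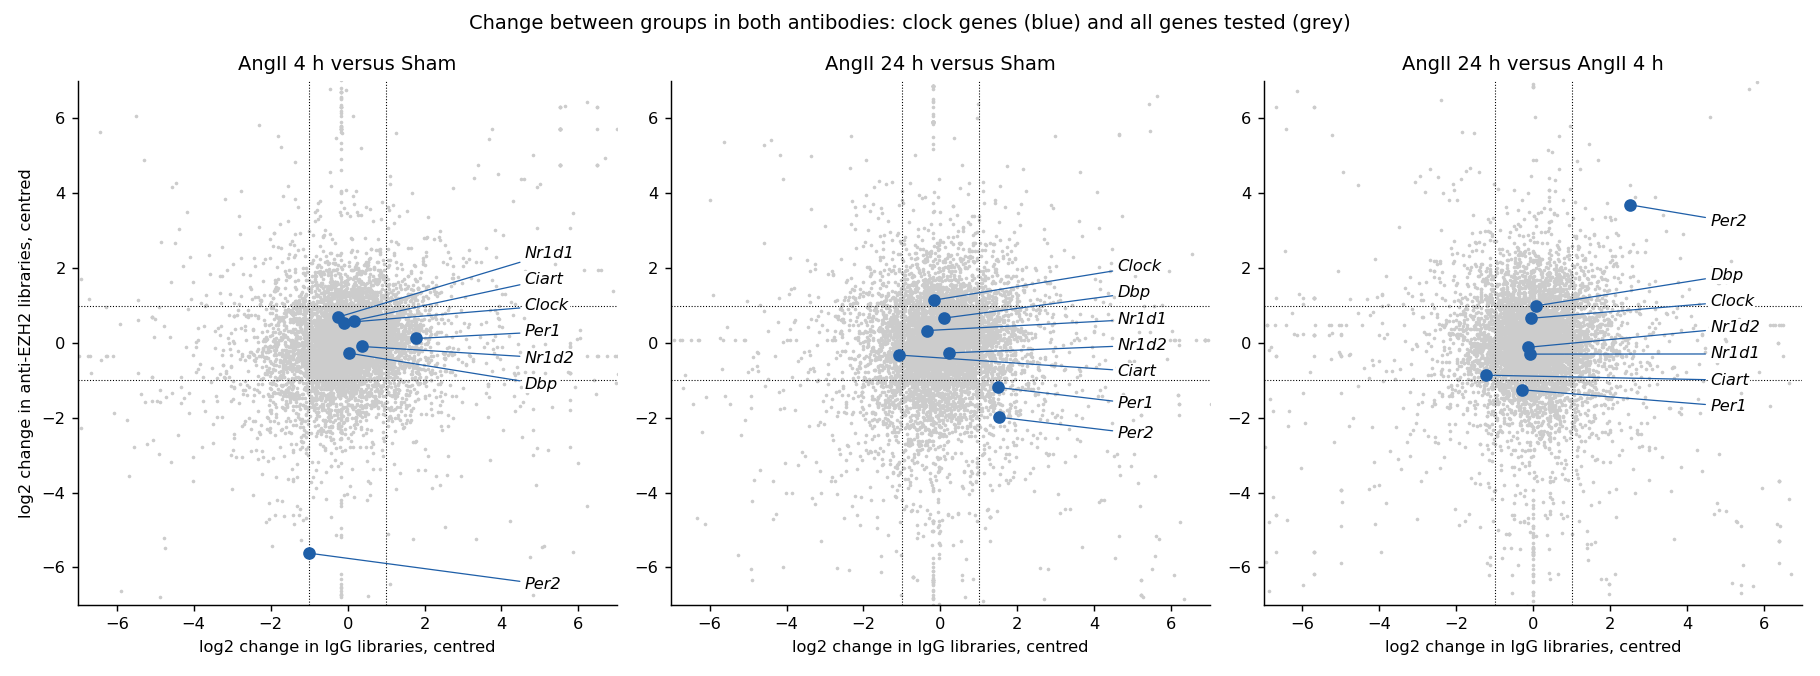
Centred log2 change in the anti-EZH2 libraries (y axis) against that in the IgG libraries (x axis) for the 7 clock genes that passed the filter (blue) and all 8637 tested genes (grey), for the 3 comparisons. Dotted lines mark 2-fold, genes past the edge of the axes are not drawn, and only Per2 at AngII 24 h against AngII 4 h lies past 2-fold in the same direction with both antibodies (2.52 and 3.69).

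The libraries of a group were also compared between antibodies. In Sham, Per1 and Per2 were past 2-fold higher with anti-EZH2 than with IgG and Clock was lower, which made 3 of 7 against 30.4% of all tested genes. None of the 7 was past 2-fold at AngII 4 h, against 24% of all tested genes. Per2 and Ciart were higher and Per1 was lower at AngII 24 h, 3 of 7 against 33.2%. The intervals overlapped in all 6 of these pairs. Of the genes with narrow intervals, Nr1d1 had a centred anti-EZH2/IgG log2 ratio of -0.65 (-1.27 to -0.03) in Sham and Dbp one of -0.68 (-1.30 to -0.05) at AngII 4 h. The other intervals of Nr1d1, Nr1d2 and Dbp included 0.

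Other components of the loop were read from a list of 21 genes that included the cryptochromes, the ROR receptors and the kinases and ligases that act on PER and CRY. Of these 16 passed the filter, and 0 were past 2-fold with both antibodies in any of the 3 comparisons, against the same 7.26%, 7.57% and 5.45% of all tested genes. With 16 genes, a count of 0 does not stand apart from these shares. Tef, which encodes another PAR bZIP factor close to DBP, was at 7.03, 12.6 and 20.9 FPKM in Sham, AngII 4 h and AngII 24 h with IgG and at 12.5, 21.4 and 18.2 FPKM with anti-EZH2. The Tef values of both AngII groups were above Sham with each antibody, with centred changes of 1.36 and 0.62 at AngII 24 h. Their intervals overlapped those of Sham, which rested on 1.29 and 4.14 equivalent fragments. Bhlhe40, a repressor that competes for E-boxes, was at 4.87, 11.3 and 3.65 FPKM with IgG and at 4.01, 2.19 and 1.51 FPKM with anti-EZH2. AngII 24 h was lowest with both, AngII 4 h was on either side of Sham, and the intervals of the groups overlapped within each antibody. The median centred changes of the 16 genes were 0.57 and -0.37, 0.36 and -0.18, and 0.06 and 0.28, in IgG and anti-EZH2 and in the order of the comparisons above.

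Of 12 output genes that follow the clock in several organs, 9 passed the filter. Tsc22d3 was also among the glucocorticoid genes above, and Klf9 and Cdkn1a respond to glucocorticoids as well. The part of that signal in the output genes was not tested. The number past 2-fold with both antibodies was 0 at AngII 4 h against Sham, 1 at AngII 24 h against Sham and 0 at AngII 24 h against AngII 4 h, beside 7.26%, 7.57% and 5.45% of all tested genes. A count of 1 of 9 is near that share. The gene was Por, which feeds electrons to cytochrome P450 enzymes, at 2.07, 2.27 and 5.12 FPKM with IgG and at 1.40, 2.86 and 3.08 FPKM with anti-EZH2. Its AngII 24 h value was the highest of the 3 with both antibodies, by 1.07 and 1.17 above Sham on the centred log2 scale. These Por intervals overlapped, on 1.41 to 8.50 equivalent fragments. Usp2, a deubiquitinase, was at 5.39, 14.4 and 12.3 FPKM with IgG and at 5.92, 12.5 and 7.99 FPKM with anti-EZH2. Both AngII groups were above Sham with each antibody. The centred Usp2 changes at AngII 4 h were 1.23 (0.60 to 1.85) and 0.72 (0.13 to 1.32). Its deposited intervals at AngII 4 h lay above those of Sham with both antibodies, as did those of Nampt and Klf9. The share of all tested genes with such intervals, at any fold, is not given here. At AngII 24 h the Usp2 changes were 0.98 (0.24 to 1.73) and 0.51 (-0.07 to 1.09), and its anti-EZH2 intervals overlapped. The median centred changes of the 9 genes were 0.69 and 0.45, 0.98 and 0.51, and -0.24 and 0.00, in IgG and anti-EZH2 and in the same order.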

How the data were processed

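The 6 RIP-seq libraries came from left ventricles, 1 with IgG and 1 with anti-EZH2 for each of 3 groups. Groups were taken from the labels. The authors mapped the reads with TopHat2 to mm10, which has the coordinates of GRCm38, and deposited FPKM in a separate table of each library and in a table of the whole series. The program that made the FPKM is not given in the sources used here, though the column names of the separate tables are those Cufflinks writes. The separate tables were used, and 787 values below 0.001 FPKM were set to 0. Equivalent fragments were the square of 2 times the FPKM over the distance from it to the upper bound. Counting errors of changes were calculated where both values had at least 20. Depth was estimated from 260 to 329 genes of 1 transcript per library, for a fragment of 200 nt. A change was log2(FPKM + 0.1), centred on the median of the 8637 genes with a mean of at least 1 FPKM, and was called past 2-fold. Library totals of deposited FPKM were unequal. Transcripts came from GENCODE M21.

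The clock genes, lists and tests were chosen with earlier results of these data known. Genes named were the 10 clock genes, up to 3 of the largest changes in each direction from each other list, and the 5 genes with the highest Pearson r to each of 2 mean clock profiles. The overlapping genes Thra and Sphk2, and the output gene Klf9, were named after their values were seen. Alternatives were the series table, no centring, centring on genes with a mean of at least 10 FPKM, pseudocounts of 0.01 and 1, a mean of at least 3 FPKM, no filter, folds of 1.5 and 3, and intervals apart. A count was taken as moved past a 1.5-fold difference. A minimum of 20 equivalent fragments, calls in both forms of table, no filter with the centring kept, and all alternatives for the glucocorticoid and immediate early genes were added after seeing the data. On simulated data, with set changes and counting error as the only spread, the calls recovered most of the changed genes. The simulation held no difference between mice and was not matched to the width of the deposited intervals. Those were as wide as 0.0732 to 3.87 equivalent fragments would give for Per2, and 4.70 to 15.8 for Per1. The share of genes recovered therefore does not cover calls for clock genes with such wide intervals. How it depended on the size of the set changes is not given here. Python 3.11.15, numpy 2.4.6, pandas 2.3.3 and matplotlib 3.10.9 were used.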

Additional observations from a re-analysis of the deposited data

Results flagged for a closer look

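Per1 and Per2 moved past 2-fold in opposite directions with the antibodies at AngII 24 h against Sham. Per1 was higher in the IgG pair, by 1.49 on the centred log2 scale, and lower in the anti-EZH2 pair, at -1.19. Per2 was higher by 1.52 in the IgG pair and lower in the anti-EZH2 pair, at -1.99. The difference between the antibodies was not tested, since each pair held 1 library per group. Of all 8637 tested genes, 6.45% were past 2-fold in opposite directions in this comparison. In the series table the changes were 1.21 and -0.81 for Per1 and 0.26 and -2.61 for Per2, of the same signs. The deposited intervals overlapped in all 4 pairs.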

How the results depend on the processing

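No paired analysis was possible because the groups compared had 1 library with each antibody and share no replicate numbers. The IgG and anti-EZH2 libraries of a group came from the same mice and were compared within each group, and a fit over the 3 groups was not run. Counts are of genes past 2-fold with both antibodies. For the clock genes the count of 0 at AngII 4 h against Sham became 1 (Per2) with centring on genes of at least 10 FPKM, a pseudocount of 0.01, a mean of at least 3 FPKM or a 1.5-fold limit, and 1 (Npas2) with no filter, which also moved the centring to all genes. With no filter it became 1 (Arntl, against a Sham anti-EZH2 value listed at 0) at AngII 24 h against Sham. At AngII 24 h against AngII 4 h the count of 1 became 2 (Per2 and Ciart) with no centring or a 1.5-fold limit, 4 (Npas2, Per2, Per3 and Ciart) with no filter, 3 (Npas2, Per2 and Per3) with no filter and the centring kept, and 0 with intervals apart, with at least 20 equivalent fragments or with calls in both forms of table, and in the series table it was 1 but Dbp in place of Per2. The other loop genes went from 0 to 1 (Nfil3) with no filter at AngII 4 h against Sham, to 2 (Tef and Csnk1e) in the series table and 3 with a 1.5-fold limit at AngII 24 h against Sham, and to 1 (Csnk1e) in the series table at AngII 24 h against AngII 4 h. The output genes had 1 in the series table, with no centring and with no filter and 2 with a 1.5-fold limit at AngII 4 h against Sham. At AngII 24 h against Sham they had 2 in the series table and with a 1.5-fold limit, and 0 with a pseudocount of 1, a mean of at least 3 FPKM, a 3-fold limit or intervals apart. Between AngII 24 h and AngII 4 h they had 2 in the series table and 3 with a 1.5-fold limit. The glucocorticoid count of 2 at AngII 24 h against AngII 4 h became 1 (Pdk4) with a pseudocount of 1, a mean of at least 3 FPKM or intervals apart and 0 with a 3-fold limit, and the count of 1 at AngII 4 h against Sham became 2 with a 1.5-fold limit; the count of immediate early genes did not move under these alternatives, which were added for both lists after seeing the data. The anti-EZH2 changes at AngII 24 h against Sham reversed in the series table to -0.17 for Clock and -0.64 for Arntl, and the Arntl change at AngII 4 h against Sham to -0.0049 with a pseudocount of 1. The log2 Arntl to Dbp ratio moved to -3.02 in the AngII 4 h IgG library in the series table, and with a pseudocount of 1 to -2.63 and -2.78 in Sham and AngII 4 h IgG and to -2.24 and -2.72 in AngII 4 h and AngII 24 h anti-EZH2. Of 90 changes and ratios of single clock genes, 66 stayed within 2 counting errors (or 1.5-fold, where none was calculated) in the series table, 67 with a pseudocount of 1 and 82 with a pseudocount of 0.01. The sign changed for 13 in the series table and for 12 with no centring. The cause of these shifts was not tested. All clock genes but Nr1d1, Nr1d2 and Dbp had fewer than 20 equivalent fragments in at least 1 library.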

Other observations

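The genes whose levels followed the clock genes most closely over the 6 libraries were named as a description, without a test, since the points share libraries and mice. Among 3610 genes with at least 1 FPKM in all 6 libraries and a range of at least 2-fold, Sh3glb2 had the highest Pearson r (0.994) with the mean profile of Arntl, Npas2 and Clock. It was followed by Copa, Ube2l3, Srsf5 and Ptprg. The gene at rank 100 still had an r of 0.876, so that a high r over 6 points was common. This profile leaned on Npas2, which had a 60.0-fold range on at most 5.44 equivalent fragments and did not pass the filter, as Arntl did not. Against the mean profile of the other 7 clock genes, Sdc2 was highest (0.966), followed by Crk, Gm8129, Rpl38-ps2 and Snora30. Gm8129 and Rpl38-ps2 held identical values in each library. The gene at rank 100 had an r of 0.690, and the profile leaned on Per2, which had a 63.5-fold range on at most 3.87 equivalent fragments.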
